A study of Mus musculus with 8 samples.

Results

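The genes of the proteasome and of MHC class I antigen processing were followed in macrophages sorted from the malignant ascites of mice bearing ovarian tumours. The set took every gene of the expression table whose symbol begins with Psma, Psmb, Psmc, Psmd or Psme, apart from pseudogenes marked -ps, which gave 45 genes, and 10 genes of the class I pathway (B2m, H2-D1, H2-K1, H2-T23, H2-M3, Tap1, Tap2, Tapbp, Erap1 and Nlrc5). These 55 genes were found among 23469 in the table, and 53 of them reached the mean of 1 TPM (a transcript's share of all transcripts, per unit of gene length) over the libraries that was asked of a gene before testing. The remaining members, Psma8 and Psmb11, did not reach it, with values of 0.06 to 0.58 and of no more than 0.02 log2(TPM + 1).

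The 8 libraries came from female Ms4a3Cre-RosaTdT fate-mapping mice on a C57BL/6 background (genotype given as Ms4a3TdT), injected intraperitoneally at 4 to 5 weeks of age with ID8 mouse ovarian cancer cells, with ascites taken 65 days later and no further treatment. In these mice Cre runs from the Ms4a3 promoter, which is active in the progenitors of granulocytes and monocytes, so that their progeny switch on the red reporter tdTomato for good. The 4 libraries of tdTomato-negative macrophages, labelled embryonic derived, are called AeEM, and the 4 of tdTomato-positive macrophages, labelled monocyte derived, are called AeMM. The 8 libraries came from 4 mice, so that AeEM and AeMM share animals, but which libraries share a mouse is not given. All mice bore tumours, so no tumour-free control entered, and a cell in which the reporter failed to switch on would be sorted as AeEM whatever its origin.

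Proteins tagged with ubiquitin are cut into peptides by the proteasome. Its barrel, the 20S core, stacks rings of alpha and beta subunits, and the 19S particle on top recognizes, unfolds and feeds in the substrate. Of the beta subunits, Psmb5, Psmb6 and Psmb7 carry the cutting sites, and in leukocytes or under interferon-gamma they can be replaced by Psmb8, Psmb9 and Psmb10 to form the immunoproteasome, which favours peptides suited to class I molecules. Peptides are pumped into the endoplasmic reticulum by Tap1 and Tap2, trimmed by Erap1 and loaded with the help of tapasin (Tapbp) onto a heavy chain paired with B2m. Nlrc5 switches on many class I genes, and macrophages use the pathway to show peptides to CD8+ T cells.

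Several members lie together in the major histocompatibility complex on chromosome 17 (mm10, GENCODE M21). H2-K1 (chr17:33996017-34000347, minus strand) and Tapbp (chr17:33915899-33929292, plus) stand at one end, followed by Psmb9 (chr17:34181987-34187764, minus), Tap1 (chr17:34187553-34197225, plus), Psmb8 (chr17:34197721-34201454, plus) and Tap2 (chr17:34203527-34216321, plus). H2-D1 (chr17:35262730-35267499, plus), H2-T23 (chr17:36029773-36032855, minus) and H2-M3 (chr17:37270220-37274484, plus) follow farther along. Psmb9 and Tap1 are transcribed away from each other, and their RefSeq start sites, at positions 34187330 and 34187556 of build GRCm38.p6, are separated by 225 bases. In GENCODE the genes overlap, with 5.8% of the exon bases of Psmb9 under Tap1 and 3.9% of those of Tap1 under Psmb9. How reads in the overlap were counted is not given in the sources used here.

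Promoter sequence from RefSeq (GRCm38.p6, the 250 bases before each start and 50 after) matched 46 of the 55 members by symbol, with 50 promoters. It was searched on both strands for 3 short motifs of the inducers of these genes. GAAANNGAA, a core of the interferon-stimulated response element, was present in 9 of 50 member promoters (18%) against 8.56% of 32851 promoters of the table. Those 9 belonged to B2m, Erap1, H2-T23, Psmb3, Psmb4, Psmc2, Psmd4, Psmd9 and Psme1. TTCNNNGAA, the letters of the interferon-gamma activated site, was present in 3 (6%) against 8.3%, in H2-M3, Psmb8 and Psmd2. TGACNNNGC, a core of the antioxidant response element through which Nrf1 and Nrf2 raise the constitutive subunits, was present in 8 (16%) against 12.4%, Psmb5 and Psmb6 among them. No matches of different motifs shared bases in a member promoter (0 cases), and 1 promoter, that of Psmd9, held more than 1 motif. A match of letters is a description and not a bound site.

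Stretches of 5 promoters are shown because they sit before genes that the results turn on: the chymotrypsin-like pair Psmb8 and Psmb5, the constitutive Psmb6, the most abundant member B2m, and H2-T23. Capitals mark the motif. Only bases before the RefSeq start are given, 10 on either side of the motif where a longer stretch ran into an annotated exon. All 29 bases shown for Psmb8 and all 29 for H2-T23 still lie under GENCODE exons of the gene itself, from transcripts that start farther upstream, and those of the other genes under none.
Psmb8 (chr17:34198088-34198116, plus strand, TTCNNNGAA, 97 bases before the start): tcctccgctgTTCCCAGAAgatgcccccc
Psmb5 (chr14:54618024-54618052, minus strand, TGACNNNGC, 47 bases before): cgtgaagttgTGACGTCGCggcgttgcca
Psmb6 (chr11:70525303-70525356, plus strand, TGACNNNGC, 9 bases before): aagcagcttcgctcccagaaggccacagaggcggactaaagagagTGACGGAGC
B2m (chr2:122147503-122147601, plus strand, GAAANNGAA, 139 bases before): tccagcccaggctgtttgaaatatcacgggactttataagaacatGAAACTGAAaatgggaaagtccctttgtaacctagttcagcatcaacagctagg
H2-T23 (chr17:36032806-36032834, minus strand, GAAANNGAA on the other strand, 123 bases before): tcctactgctTTCTCTTTCataaagacac

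The deposited values are log2(TPM + 1), and all values below are on that scale unless TPM is named. The read depth is unknown, so precision rests on the spread of 4 libraries a group. They carry an adjustment, since a gene's mean is almost equal in 3 sets of libraries. Replicate 1 of both groups makes up a set, replicate 2 another, and the rest (3 plus 4) the last. In replicates 1 and 2 an AeEM value above the gene's mean therefore comes with an AeMM value about as far below it, and a fit with a term for the sets is given beside the unpaired fit. All 7 macrophage markers were detected in every library and none was called between the groups, from Mertk (13.2 TPM) and Adgre1, which encodes F4/80 (4.11 to 4.36), to Csf1r (184 TPM) and Cd68 (3639 TPM). Adgre1, Csf1r and Mertk were lower in every AeEM library than in any AeMM library, and Cd68 higher. Markers of other cells differed between the groups, with summed dendritic cell markers at 44.2 to 106 TPM in AeEM and 6.48 to 13.4 TPM in AeMM. On average Cd209a was the largest part in both groups (66.4 and 4.51 TPM), followed by Itgax (5.44 and 2.08 TPM). Of the 3 tested genes of that list Cd209a (3.65) and Itgax (1.05) were called higher in AeEM by limma, Cd209a alone with the sets fitted. Ccr7, the other tested gene, was not called (1.48, limma adjusted p = 0.145, and 0.425 with the sets fitted). It averaged 3.52 TPM in AeEM and 0.578 TPM in AeMM. Flt3, Zbtb46, Xcr1, Clec9a and Siglech averaged under 1 TPM in both groups. NK cell markers summed to 0.215 to 1.76 and 4.29 to 11.1 TPM, with Ncr1 at or near 0 in every library, and neutrophil markers to 18.6 to 22.6 and 32.0 to 46.0 TPM. Nkg7 (-2.41) and S100a8 (-1.03) of these lists were called lower in AeEM by limma, neither with the sets fitted. T cell markers summed to 0.414 to 2.26 and 2.65 to 6.74 TPM, B cell markers to 34.3 to 84.6 and 65.2 to 76.3 TPM, and epithelial or mesothelial markers to 3.70 to 6.65 and 3.93 to 6.14 TPM. Haemoglobin RNA, from red blood cells, summed to 7663 to 12740 TPM in AeEM and 4207 to 10471 in AeMM. The part of these markers in the results below was not tested, and in bulk RNA fewer cells of a type and less RNA per cell cannot be told apart.

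The members held 2.94% to 3.41% of all TPM in a library, with overlapping ranges in AeEM (2.94% to 3.35%) and AeMM (2.99% to 3.41%). B2m, at a mean of 15189 TPM over the 8 libraries, ranked 11th of the 8801 genes tested, followed among the members by H2-D1 (5552 TPM) and H2-K1 (4091 TPM). The most abundant proteasome gene was Psmb6 (578 TPM), and the least abundant tested members were Psmd9 (2.12 TPM), Nlrc5 (3.03 TPM) and Psmc3ip (3.74 TPM).

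No tested member passed the test between AeEM and AeMM (limma, unpaired, Benjamini-Hochberg adjusted p under 0.05), 0 of 53 against 212 of all 8801 genes (2.41%). In the fit with a term for the sets it was again 0 of 53, against 14 genes (0.159%), and with the replicate number as a block 0 of 53, against 5 genes (0.0568%). At an unadjusted p under 0.05 the unpaired fit took 8 of 53 members (15.1%; H2-T23, Psmc3ip, Psmc4, Psmc5, Psmd13, Psmd4, Psmd8 and Tapbp) against 18% of all genes, and the fit with the 3 sets took 4 (7.55%; H2-T23, Psmc3ip, Psmc5 and Psmd8) against 9.64%. The libraries of the groups did not overlap in 4 members (7.55%; H2-T23, Psmc4, Psmc5 and Psmd4, all with AeEM above), against 12.2% of all genes. By each of these counts the members were called no more often than the background. The median difference (AeEM minus AeMM) was 0.01 over the members and -0.01 over all genes, and the median size of a difference, whatever its sign, was 0.09 for members and 0.16 for all genes tested. The median SE was smaller for members as well, at 0.10 against 0.14 for all genes tested. Among the tested members the largest difference of a gene that encodes a pathway component was 0.30, in H2-T23.

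**Figure D1:**
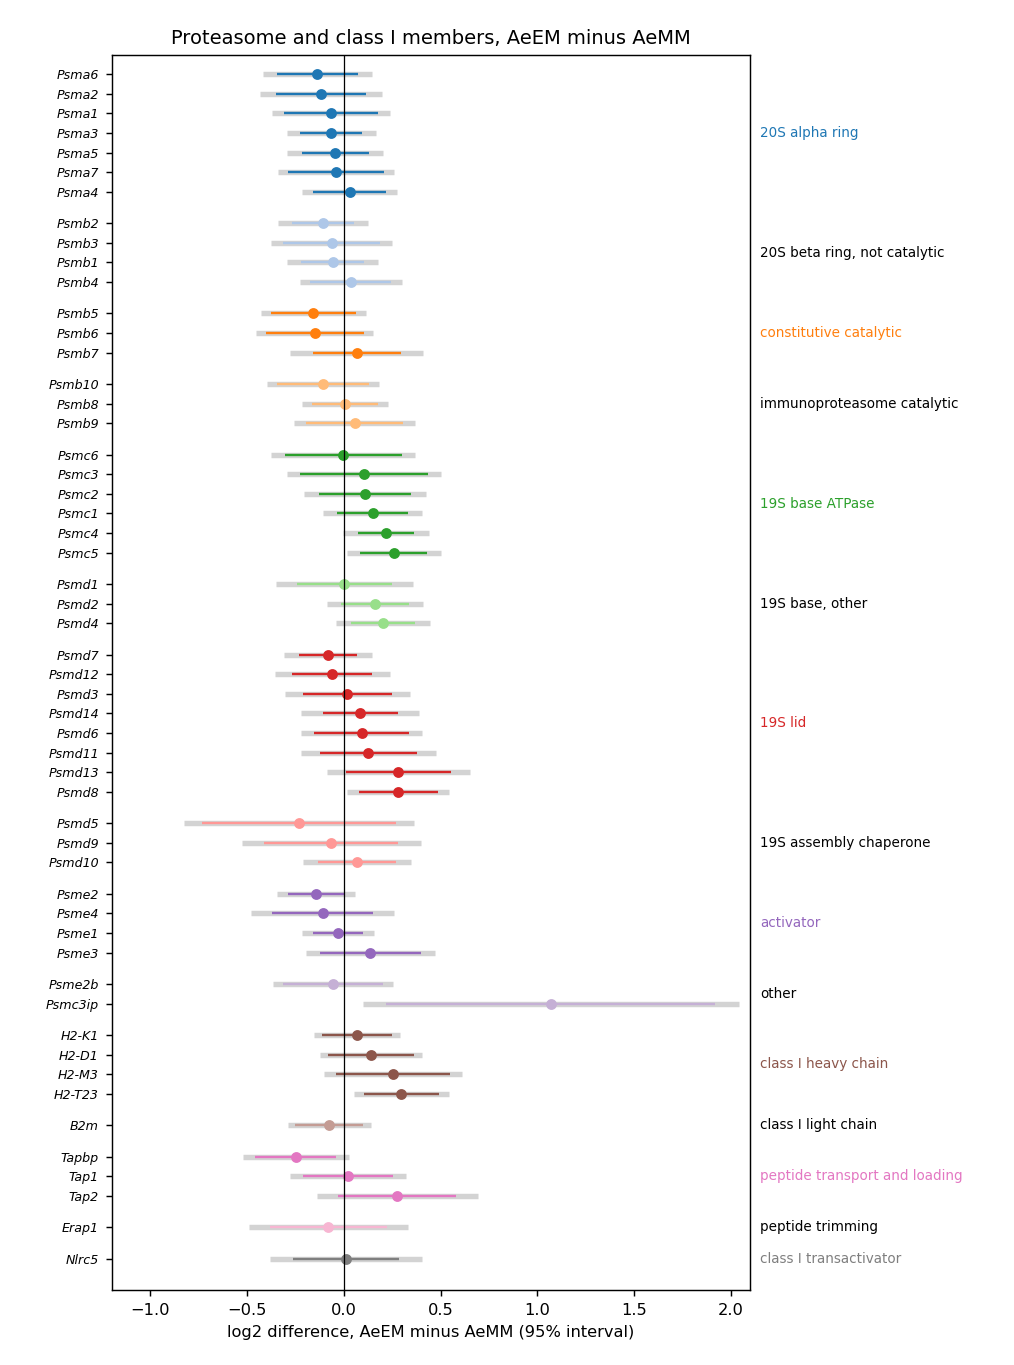
Differences of the 53 tested members, in log2 units, AeEM minus AeMM, ordered by role. Points are the fitted differences, coloured lines their 95% intervals in the unpaired fit and grey bars those of the fit with a term for the 3 sets of libraries; apart from Psmc3ip every point lies between -0.25 and 0.30.

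None of the immunoproteasome subunits passed the test, and their 95% intervals reached from -0.35 to 0.31 in the unpaired fit and from -0.40 to 0.37 with the sets fitted. Psmb8, the chymotrypsin-like subunit of the immunoproteasome, read 8.88, 8.76, 8.95 and 8.63 in AeEM replicates 1 to 4 and 8.72, 8.84, 8.81 and 8.82 in AeMM replicates 1 to 4, the order kept below. The AeEM values lay on both sides of the AeMM values, and the difference of 0.01 (SE 0.07, n = 4 a group) had a 95% interval of -0.16 to 0.18, or -0.22 to 0.23 in the fit with the sets.
For Psmb9, which replaces Psmb6, AeEM read 6.42, 6.35, 6.63 and 6.10 and AeMM 6.26, 6.34, 6.45 and 6.23. The groups overlapped over most of their range (difference 0.06, 95% interval -0.20 to 0.31). Psmb10, which replaces Psmb7, read 8.56, 8.37, 8.68 and 8.17 in AeEM and 8.46, 8.62, 8.57 and 8.58 in AeMM. AeEM replicate 4 was lowest and AeEM replicate 3 highest, so the AeMM libraries fell within the AeEM range, with a difference of -0.11 (-0.35 to 0.13), which was -0.018 without AeEM replicate 4 and -0.19 without AeEM replicate 3.

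The constitutive catalytic subunits did not pass the test either. Psmb5, the counterpart of Psmb8, read 7.76, 7.63, 7.66 and 7.73 in AeEM and 7.79, 7.91, 8.09 and 7.62 in AeMM. Of the AeMM libraries 3 stood above every AeEM library and replicate 4 below them all, and the difference was -0.16 (-0.38 to 0.06, limma adjusted p = 0.442), or -0.079 without AeMM replicate 3.
Psmb6, the caspase-like subunit, read 9.03, 9.04, 9.43 and 8.88 in AeEM and 9.31, 9.29, 9.11 and 9.26 in AeMM. The highest library, replicate 3, was an AeEM library although the AeEM mean was lower (difference -0.15, -0.40 to 0.10, and -0.26 without that library). Psmb7, the trypsin-like subunit, read 2.56, 2.55, 2.74 and 2.41 in AeEM and 2.50, 2.51, 2.50 and 2.48 in AeMM, a difference of 0.07 (-0.16 to 0.29). The AeMM libraries were close together (SD 0.013), and the AeEM libraries lay around them.

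**Figure D2:**
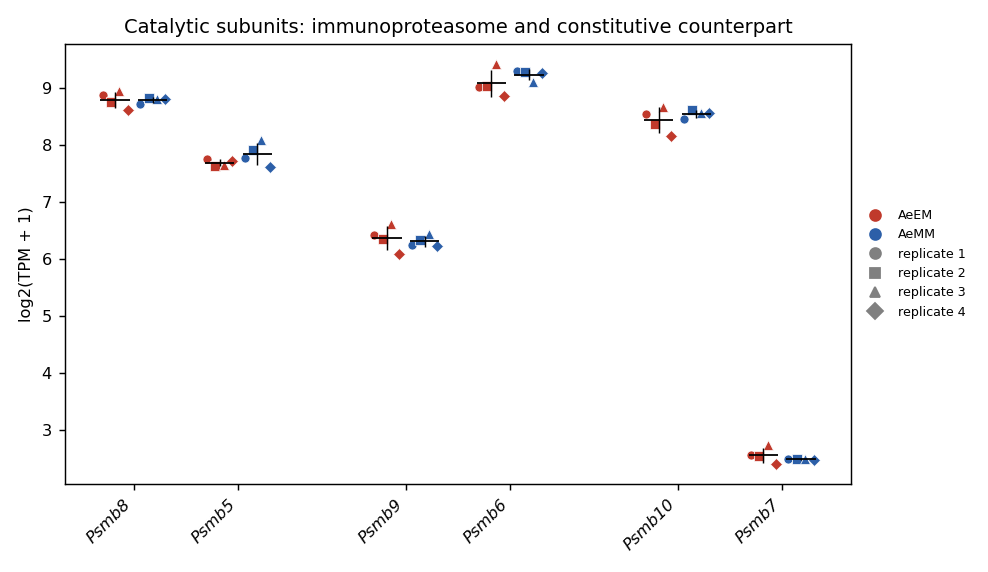
Levels of the immunoproteasome subunits Psmb8, Psmb9 and Psmb10, each beside its constitutive counterpart, in log2(TPM + 1). Each symbol is a library (red AeEM, blue AeMM, shape for replicate number), horizontal bars are group means and vertical lines 1 SD (n = 4); the groups overlap in all 6 genes, and the pairs differ in level from Psmb7 near 2.5 to Psmb6 near 9.2.

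Set against its constitutive counterpart within each library, Psmb8 was the higher of its pair in all 8 libraries. The log2 ratio Psmb8 to Psmb5, taken as the difference of their log2(TPM + 1) values, was 1.12, 1.13, 1.29 and 0.90 in AeEM and 0.94, 0.92, 0.72 and 1.20 in AeMM, with means of 1.11 ± 0.16 and 0.95 ± 0.19 (SD, n = 4 each). The highest AeMM value exceeded 3 of the AeEM values, so the difference of 0.16 lay within the overlap of the groups. As a share of the summed TPM of the pair, Psmb8 held 68.4% ± 2.42 in AeEM and 65.8% ± 3.02 in AeMM (SD, n = 4 each).
Psmb9 was the lower of its pair in every library. The log2 ratio Psmb9 to Psmb6 was -2.61, -2.69, -2.80 and -2.77 in AeEM and -3.05, -2.94, -2.66 and -3.03 in AeMM (means -2.72 ± 0.09 and -2.92 ± 0.18). Only AeMM replicate 3 lay within the AeEM range, and the differences within the sets were 0.45 (replicate 1), 0.25 (replicate 2) and 0.06 (the rest), all with AeEM higher.
Psmb7 was listed at a mean of only 4.79 TPM, and Psmb10 exceeded it in every library by the widest margin of the pairs. That ratio was 6.00, 5.83, 5.94 and 5.76 in AeEM and 5.95, 6.11, 6.07 and 6.10 in AeMM (means 5.88 ± 0.11 and 6.06 ± 0.07), with AeMM replicate 1 alone inside the AeEM range.

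How far the subunits of a pair stood apart depended on the gene length behind the TPM, which is not given in the sources used here. From GENCODE M21 the merged exons of Psmb8 hold 3381 bases and its principal transcript 1628, those of Psmb9 3660 and 1352, and those of Psmb10 1705 and 1311. For Psmb5 both are 899 bases, for Psmb6 they are 1872 and 798, and for Psmb7 3421 and 1160. Were the deposited TPM made with merged exons, a change of these genes to principal transcripts would move the mean log2 ratios over the 8 libraries from 1.03 to 2.08 (Psmb8 to Psmb5), from -2.82 to -2.62 (Psmb9 to Psmb6) and from 5.97 to 4.96 (Psmb10 to Psmb7). Which subunit was the higher of its pair stayed the same.

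The other 20S subunits build the rings. All 7 tested alpha subunits had intervals across 0, with means of 4.49 to 8.25 and differences from -0.14 (Psma6) to 0.03 (Psma4). In Psma6, AeEM read 5.31, 5.33, 5.53 and 5.33 and AeMM 5.58, 5.55, 5.31 and 5.61. Replicate 3 was the highest library in AeEM and the lowest in AeMM, and the other AeMM libraries stood above all of AeEM. Psma2 had the next largest difference of the ring, -0.12, with AeEM at 4.35, 4.38, 4.68 and 4.30 and AeMM at 4.63, 4.58, 4.41 and 4.56. In Psma2 AeEM replicate 3 was above every other library.
The 4 beta subunits without a cutting site (Psmb1 to Psmb4) differed by -0.11 to 0.04. Psmb2 read 5.96, 5.85, 6.02 and 5.79 in AeEM and 5.97, 6.05, 6.02 and 6.00 in AeMM (difference -0.11, limma adjusted p = 0.486). Psmb3 read 6.30, 6.25, 6.67 and 6.20 in AeEM and 6.47, 6.51, 6.41 and 6.27 in AeMM, with AeEM replicate 3 highest of all. Of the 17 tested genes of the 20S core, 12 had a lower mean in AeEM and 5 a higher one (median -0.06, against -0.01 over all genes). Over all genes 4503 of the 8801 differences were below 0. None of the core genes had an unadjusted p under 0.05.

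The 19S subunits among the members leaned the other way, without one passing the test. Of these 17, 14 had a higher mean in AeEM and 3 a lower one, with a median difference of 0.11 against -0.01 over all genes. In 5 of them the unadjusted limma p was under 0.05 (18% over all genes), and Psmc5 and Psmd8 kept it with the sets fitted. Sem1, a lid protein left out of the set by its symbol, went the other way (-0.38). Adrm1, a 19S subunit also left out by its symbol, went the same way as most of them (0.23). Neither passed the test. The groups did not overlap in 3 of the 17 (12.2% over all genes). Over all genes 4298 of the 8801 differences were above 0. Subunits varied together over the same 8 libraries (median Pearson r 0.39 among 19S genes and 0.55 among core genes). The counts of genes by direction are therefore not counts of independent results, and they are a description only.
Among the ATPases of the base, which unfold the substrate, Psmc5 read 6.12, 6.02, 6.25 and 6.00 in AeEM and 5.79, 5.92, 5.84 and 5.81 in AeMM. Its AeEM libraries all lay higher than any AeMM library. Its difference was 0.26 (SE 0.08, 1.20-fold, limma adjusted p = 0.122, and 0.494 in the fit with the sets). The 95% interval was 0.09 to 0.43, or 0.01 to 0.50 with the sets fitted.
Psmc4, another of these ATPases, read 6.05, 6.05, 6.08 and 5.99 in AeEM and 5.81, 5.82, 5.92 and 5.75 in AeMM. AeEM was again above AeMM throughout, by 0.22 (SE 0.06, limma adjusted p = 0.122, and 0.527 with the sets fitted), and the within-set differences of 0.24, 0.23 and 0.20 were close to one another. The other ATPases (Psmc1, Psmc2, Psmc3 and Psmc6) had overlapping groups and differences of no more than 0.15 in size.

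Of the other subunits of the base, Psmd4, a receptor for ubiquitin chains, read 6.07, 5.93, 5.94 and 5.88 in AeEM and 5.64, 5.77, 5.86 and 5.74 in AeMM. The lowest AeEM value was just above the highest AeMM value (difference 0.20, limma adjusted p = 0.193, and 0.599 with the sets fitted). Psmd2, a scaffold of the base, read 5.74, 5.76, 5.71 and 5.88 against 5.63, 5.63, 5.72 and 5.47, a difference of 0.16 with AeMM replicate 3 inside the AeEM range. Psmd1, the other scaffold, had a difference of 0.0033.
In the lid, which removes the ubiquitin chain, Psmd8 read 7.48, 7.31, 7.68 and 7.40 in AeEM and 7.16, 7.34, 7.14 and 7.11 in AeMM. Replicate 2 was the only one in which AeMM was the higher, by 0.02, and the difference over all was 0.28 (SE 0.09, 1.22-fold, limma adjusted p = 0.148, and 0.487 with the sets fitted). Psmd13, another lid subunit, read 3.47, 3.40, 3.63 and 3.24 in AeEM and 3.09, 3.19, 3.35 and 2.97 in AeMM. Its difference of 0.28 had an adjusted p of 0.263 in limma, AeMM replicate 3 lay above AeEM replicate 4, and 10.1% of its exon bases lie under Sirt3.
The remaining 6 lid genes of the set, among them the deubiquitinase Psmd14 (0.09), differed by -0.08 (Psmd7) to 0.13 (Psmd11), all with overlapping groups. Scaling decided the call for some of the 19S genes: Psmd8 passed with median-of-ratios scaling (adjusted p = 0.037) and quantile scaling (0.038), and Psmc5 with median-of-ratios scaling (0.039), all in limma.

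Chaperones that help the base assemble and then leave it followed no common direction. Psmd5 read 3.18, 2.89, 2.26 and 3.28 in AeEM and 2.83, 3.15, 3.25 and 3.29 in AeMM, with AeEM replicate 3 far below the rest (difference -0.23, 95% interval -0.73 to 0.27, and -0.017 without that library). Psmd10, also known as gankyrin, read 5.03, 4.88, 5.18 and 5.01 against 4.94, 5.10, 4.93 and 4.87 (difference 0.07). Psmd9, at a mean of 1.63, differed by -0.06, and 25.5% of its exon bases lie under a non-coding gene.

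The interferon-inducible activator PA28, a cap made of Psme1 and Psme2 that opens the core, was abundant in both groups. Psme1 read 8.87, 8.79, 8.90 and 8.72 in AeEM and 8.81, 8.87, 8.90 and 8.81 in AeMM, and its interval was among the narrowest of the members (difference -0.03, -0.16 to 0.10). Psme2 read 8.88, 8.76, 8.83 and 8.65 in AeEM and 8.84, 8.93, 8.99 and 8.93 in AeMM. AeMM replicates 2, 3 and 4 stood above every AeEM library, but replicate 1 did not, and the difference was -0.14 (limma adjusted p = 0.289, and 0.679 with the sets fitted).
Psme2 is uncertain, since Psme2b, a near-copy of it on chromosome 11 that shares its sequence, was listed at 7.94, 7.79, 7.82 and 7.91 in AeEM and 7.86, 7.98, 8.21 and 7.63 in AeMM. How reads matching both were divided is not given in the sources used here. Psme3, the nuclear activator that interferon does not induce, read 5.21, 4.95, 5.26 and 5.15 against 4.92, 5.20, 5.14 and 4.77 (difference 0.14, -0.12 to 0.40, and 0.057 without AeMM replicate 4). Psme4, an activator known from testis and DNA repair, differed by -0.11.

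Psmc3ip bears a proteasome symbol but encodes a partner protein of a 19S ATPase known from meiotic recombination. It read 2.89, 2.64, 2.04 and 2.82 in AeEM and 1.25, 1.48, 0.75 and 2.64 in AeMM. AeMM replicate 4 stood with the AeEM libraries and the other AeMM libraries below them all. The difference was 1.07 (SE 0.37, limma adjusted p = 0.178, and 0.470 with the sets fitted). It was 1.47 with a pseudocount of 0.1 and 0.51 with one of 5. Without AeMM replicate 4 it was 1.44 (adjusted p = 0.039), and 21.2% of its exon bases lie under Mlx.

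Class I heavy chains all had higher means in AeEM as deposited, with a median difference of 0.20, although H2-D1 and H2-K1 turned to -0.070 and -0.26 under quantile scaling. The highest-placed of them in the test was H2-T23 (Qa-1), a non-classical chain that shows signal peptides of other class I chains to NK and T cells. It read 8.69, 8.75, 8.55 and 8.97 in AeEM and 8.48, 8.44, 8.44 and 8.42 in AeMM. The lowest AeEM library exceeded the highest AeMM library, and the AeMM libraries were close together. The difference was 0.30 (SE 0.09, 1.23-fold, 95% interval 0.10 to 0.49, limma adjusted p = 0.112), with within-set values of 0.21, 0.31 and 0.33. In the fit with the sets the interval was 0.05 to 0.54 and the adjusted p 0.425.
H2-M3, which shows formylated peptides of bacteria and mitochondria, read 6.84, 6.97, 7.36 and 6.74 in AeEM and 6.84, 6.73, 6.77 and 6.56 in AeMM. AeEM replicate 3 stood above the rest, and the difference of 0.25 had an interval of -0.04 to 0.55 and was 0.13 without that library.
Of the classical chains, H2-D1 read 12.35, 12.62, 12.31 and 12.72 in AeEM and 12.49, 12.25, 12.40 and 12.32 in AeMM. AeEM replicates 2 and 4 were above all AeMM libraries and replicates 1 and 3 among them (difference 0.14, -0.08 to 0.36, and 0.068 without AeEM replicate 4). H2-K1 was likewise highest in AeEM replicates 2 and 4 and lowest in replicate 3 among the AeEM libraries, at 11.95, 12.16, 11.85 and 12.15 against 12.03, 11.84, 11.97 and 12.01 (difference 0.07, -0.11 to 0.25).
B2m, the light chain common to them, read 13.70, 13.95, 13.81 and 13.94 in AeEM and 14.07, 13.83, 13.81 and 13.98 in AeMM. Its difference was -0.07 (-0.25 to 0.10), with AeEM lower in replicate 1 by the widest margin and higher in replicate 2.

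**Figure D3:**
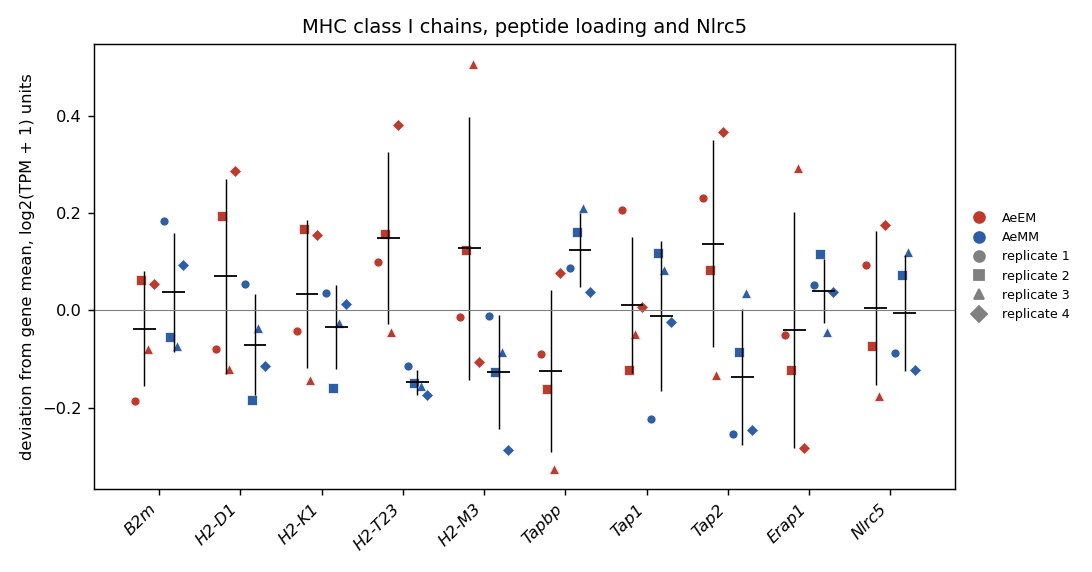
Deviation of each class I member from its own mean over the 8 libraries, in log2(TPM + 1) units. Symbols are libraries (red AeEM, blue AeMM, shape for replicate number), horizontal bars group means and vertical lines 1 SD (n = 4). H2-T23 is the only gene of the plot whose groups do not overlap, and Tapbp, B2m and Erap1 have a lower mean in AeEM than in AeMM.

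Peptide loading split between its genes. Tapbp, which holds the empty heavy chain at the transporter, read 6.29, 6.22, 6.05 and 6.46 in AeEM and 6.46, 6.54, 6.59 and 6.42 in AeMM. AeEM replicate 4 reached the AeMM range and the others did not. The difference was -0.25 (SE 0.09, 95% interval -0.46 to -0.04, limma adjusted p = 0.197). With the sets fitted the interval was -0.52 to 0.02, across 0, and the limma adjusted p 0.557. In the annotation 29.0% of the exon bases of Tapbp lie under Gm19412 or Zbtb22.
Tap1 read 5.93, 5.60, 5.67 and 5.73 in AeEM and 5.50, 5.84, 5.80 and 5.70 in AeMM (difference 0.02, -0.21 to 0.25). Its highest and lowest values were those of replicate 1 in the 2 groups. Tap2 was listed at much lower values than its partner, 2.57, 2.42, 2.20 and 2.70 in AeEM and 2.08, 2.25, 2.37 and 2.09 in AeMM, with 18.5% of its exon bases under non-coding genes. Only AeEM replicate 3 fell within the AeMM range, and the difference was 0.27 (-0.03 to 0.58, limma adjusted p = 0.338), or 0.15 with a pseudocount of 5.
The trimming peptidase Erap1 read 2.38, 2.31, 2.72 and 2.15 in AeEM and 2.48, 2.55, 2.39 and 2.47 in AeMM, with AeEM replicates 3 and 4 at the 2 ends and 11.5% of its exon bases under Cast. Nlrc5 read 2.10, 1.93, 1.83 and 2.18 in AeEM and 1.92, 2.08, 2.13 and 1.88 in AeMM. Both groups spanned the same range (difference 0.01, -0.26 to 0.28).

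Libraries of the same group differed in a way that many subunits shared. AeEM replicate 3 had the highest AeEM value in 16 of the 17 core genes and AeEM replicate 4 the lowest in 13, and in AeMM the lowest was replicate 4 in 10. The mean deviation of the core genes from their own means was 0.16 in AeEM replicate 3 and -0.17 in AeEM replicate 4, a gap of 0.32, while the AeEM and AeMM means were only -0.03 and 0.03. For the 19S genes the deviations ran from -0.02 to 0.13 in AeEM and from -0.15 to 0.05 in AeMM.
Across the 8 libraries the median Pearson r between pairs of core genes was 0.55 (above 0 in 129 of 136 pairs), and it was 0.39 among 19S genes and 0.11 between core and 19S genes. Core genes ran against H2-D1, H2-K1 and H2-T23, with a median r of -0.62 and 1 of 51 pairs above 0. The remaining heavy chain, H2-M3, was not in that count. Like most core genes it was highest among the AeEM libraries in replicate 3 (7.36) and lowest in replicate 4 (6.74). The classical heavy chains H2-D1 and H2-K1 ran together (r = 0.92), as did Psmb8 with Psmb10 (0.92), Psmb8 with Psmb9 (0.87) and Psme1 with Psme2 (0.79). Tap1 and Psmb9, whose starts lie back to back, had an r of only 0.19. These values describe 8 libraries whose values mirror each other within replicates 1 and 2 and whose depth is unknown.

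**Figure D4:**
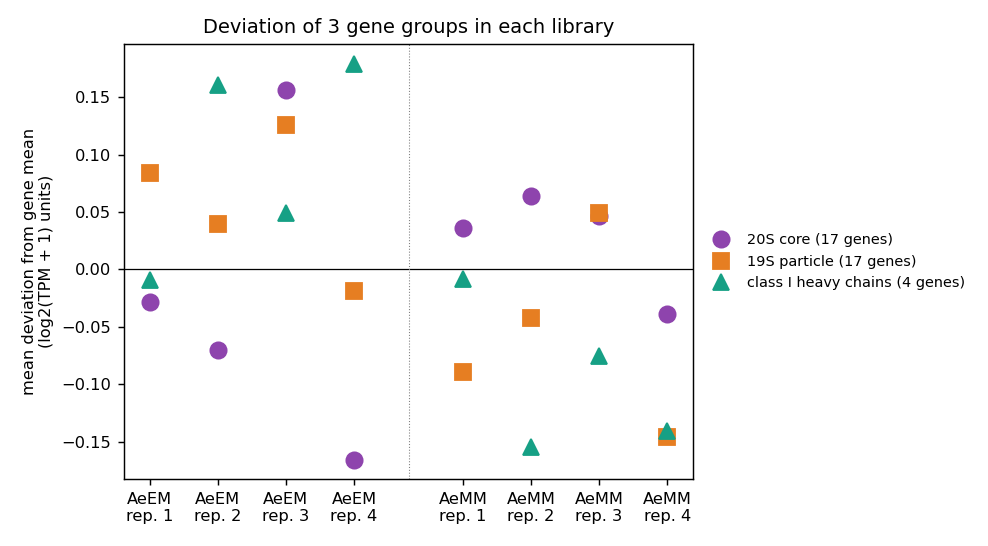
Mean deviation from the gene mean, in log2(TPM + 1) units, of 17 genes of the 20S core, 17 of the 19S particle and 4 class I heavy chains in each of the 8 libraries. Core genes are highest in AeEM replicate 3 (0.16) and lowest in AeEM replicate 4 (-0.17), where the heavy chains are highest (0.18).

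Other genes around the pathway were taken as 7 lists of 73 genes, of which 66 were tested. Of these, 3 were higher in AeEM and 1 was lower in the unpaired fit, 0 passed in the fit with the sets, and 15 had an unadjusted p under 0.05 in the unpaired fit, where 2.41% of all genes were called and 18% had such a p. In 5 or 6 of the 8 fits with 1 library left out each of the 4 called genes lost its call, with adjusted p of up to 0.11 (limma, without AeEM or AeMM replicates 1 and 2 among them). Fcgrt, the class I-like receptor that pairs with B2m to recycle IgG, read 7.69, 7.70, 7.64 and 7.77 in AeEM and 7.41, 7.41, 7.45 and 7.38 in AeMM, a difference of 0.29 (limma adjusted p = 0.029, or 0.314 once the sets were fitted). Batf3, a transcription factor of cross-presenting dendritic cells, was higher by 0.54 (0.025 and 0.268 by the same tests), and Ciita, the activator of MHC class II, by 0.52. Cd209a and Itgax were also higher in AeEM, and so was the mean of Ccr7, without a call. The other dendritic cell markers averaged under 1 TPM in both groups, and the part of dendritic cells in these differences was not tested. Cybb, the oxidase subunit that slows the breakdown of antigen in phagosomes, was lower in AeEM, at -0.42, where limma gave an adjusted p of 0.026, or 0.251 once the sets were fitted.

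The class I-like chains (10 tested) and the cross-presentation list (5 tested) had median differences of 0.16 and 0.18, and the lists below had medians between -0.03 and 0.09. No gene passed in 4 of the 7 lists. In the list of proteasome assembly and regulation (13 tested), Sem1, a small lid protein, came closest, at 4.51, 4.46, 4.71 and 4.44 in AeEM and 4.98, 4.96, 4.94 and 4.75 in AeMM (difference -0.38, limma adjusted p = 0.072). Its direction was opposite to that of Psmd8. Pomp, which matures the core and is needed for the immunoproteasome, differed by -0.16. In the list of loading in the endoplasmic reticulum (9 tested), Canx, the chaperone of new heavy chains, stood at -0.28 (adjusted p = 0.052) and Tapbpl, a relative of tapasin, at 0.54 (0.080), both in limma. Cytosolic peptidases (5 tested) and ubiquitin genes (6 tested) held no call, with Ubb nearest at 0.24 (limma adjusted p = 0.065).
Among the 18 tested interferon and class I regulators Ciita alone passed. Irf1, a factor that drives Psmb9 and Tap1, differed by 0.07, and the receptor chains Ifngr1 and Ifngr2 by 0.06 and 0.02.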

How the data were processed

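The authors sorted macrophages on CD45, Ly6G, SiglecF, Ly6C, CD11b, F4/80 and tdTomato, and prepared their RNA by Smart-seq2; fastp trimming, alignment to mm10 by STAR 2.7.2a and gene counting by featureCounts came before deposit. The deposited values are log2 of TPM plus 1, adjusted between 3 sets of libraries; the annotation, the gene lengths and the adjustment are not given in the sources used here. The analysis had been laid out for TPM, so the log2 values were used as they stand. The 8801 genes that averaged 1 TPM or more entered an unpaired limma fit (version 3.58.1 in R 4.3.3, trend on), and p-values were adjusted over all of them (Benjamini-Hochberg, threshold 0.05). The script was tested on simulated data, with changes larger than the difference of any tested member but Psmc3ip. That test therefore does not show whether differences as small as those of the members would be found. The 8 libraries came from 4 mice in 4 runs; whether equal numbers mark the same mouse is not stated, so the main fit was unpaired. Values were printed for every library of the catalytic subunits, Psme1, Psme2, the class I genes and the members with the largest differences in each role. Members and lists were chosen with earlier results of these data known.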

Additional observations from a re-analysis of the deposited data

Results flagged for a closer look

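Among 66 groups of 4 libraries (33 genes), 1 held a library apart from the others. It was AeEM replicate 3 in Psma6, at 5.53, whose distance to the next library was 0.94 of the range of the group, above Dixon's 95% critical value. Chance flags about 1 group in 20.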

How the results depend on the processing

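All values here are from limma. No member was called as reported, higher or lower. Quantile scaling called 1 member higher (Psmd8) and 1 lower (H2-K1), median-of-ratios scaling called 2 higher (Psmd8 and Psmc5) and leaving out AeMM replicate 4 called 1 higher (Psmc3ip), so leaving out 1 library gave 0 to 1 members higher. The direction reversed for H2-D1 (-0.070) and H2-K1 (-0.26) under quantile scaling; the cause was not tested. Of 556 recomputed values of single genes 550 kept their side of the threshold and direction, counting 13 that changed sign within 1 SE of 0. Over all genes the 212 calls became 14 with a term for the 3 sets of libraries, 136 without the trend and 73 to 203 with 1 library left out (73 without AeEM replicate 1, 77 without AeEM replicate 2, 77 without AeMM replicate 1, 78 without AeMM replicate 2, and 131 without AeMM replicate 4). With the replicate number as a block 5 genes were called and no member; the adjustment makes same-numbered libraries mirror each other in replicates 1 and 2, so although the 4 mice gave both populations, whether equal numbers mark the same mouse could not be checked. Principal transcript lengths, an alternative chosen after seeing the data, moved the mean log2 ratios to 2.08, -2.62 and 4.96 for Psmb8 to Psmb5, Psmb9 to Psmb6 and Psmb10 to Psmb7. Depth is unknown, so counting error cannot be given.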

Other observations

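Psmb7 was listed at a mean of 4.79 TPM, whereas the other beta subunits of the constitutive core (Psmb1 to Psmb6) were listed at 61.2 (Psmb2) to 578 TPM (Psmb6). In the annotation 11.8% of its exon bases lie under Nek6. Tap2 (4.10 TPM) was likewise listed below its partner Tap1 (52.0 TPM). In both cases the low member was low in all 8 libraries, and the cause was not tested.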
